A study of Mus musculus with 2 samples.

Results

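The genes described here are the mouse major histocompatibility complex genes of the H2 family together with the genes that load and control them. A gene was taken when its symbol starts with H2- and the annotation gives it at least 1 protein-coding transcript, and B2m, Cd74, Ciita, Nlrc5, Tap1, Tap2 and Tapbp were added by name. That gave 44 genes of the 55536 in the gene table, of which 21901 have a protein-coding transcript. By role they were 26 class I heavy chain genes, the class I light chain gene B2m, 3 peptide-loading genes, 11 class II genes with Cd74 among them, 2 transactivators, and H2-Ke6, whose symbol comes from its place in the complex and whose product is a steroid dehydrogenase.

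The study held 1 group of 2 total RNA sequencing libraries from the gastrocnemius, a calf muscle. Both came from females of B6CASTF1/J, the F1 hybrid of C57BL/6J and the wild-derived CAST/EiJ strain, at 18 to 20 months of age. Each library was made from 300 ng of RNA with ERCC spike-ins as a stranded, ribosomal RNA-reduced library. The labels call the libraries biological replicates 1 and 2 and give them separate tissue sample identifiers but the same donor identifier, which names the strain. There was no treatment and no second group, so the values below are levels with their spread over 2 libraries, and no test between conditions could be made.

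Class I molecules pair a heavy chain with beta-2 microglobulin and present peptides from inside the cell to CD8 T cells. The heavy chains H2-K and H2-D are the classical, highly polymorphic ones and are made by nearly all nucleated cells, although skeletal muscle fibres are known for low levels at rest. Class II molecules pair an alpha with a beta chain, are made mainly by dendritic cells, B cells and macrophages, and present peptides taken up from outside to CD4 T cells. Ciita switches on class II genes and Nlrc5 class I genes, and both act through a shared promoter module of an S or W box, an X box, a CRE-like X2 box and a Y box, the inverted CCAAT motif bound by NF-Y.

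Promoters of 5 genes are printed below to show which letters of this module they hold. They are those of the classical heavy chains, the light chain and the class II genes H2-Aa and H2-Eb1. H2-Aa and H2-Eb1 had the lowest log2 ratios between the libraries among the genes compared below. Whether the letters bear on that difference was not tested. RefSeq windows on GRCm38.p6, from 250 bases before the start of transcription to 50 after it, were found for 34 of the 44 genes, with 37 windows in all. The sequence is that of the C57BL/6J reference, so the CAST copy that these hybrids also carry is not shown. Capitals mark exact matches, on either strand, to CCAAT (Y box), TGACG (X2 box), AGCAAC (part of the X box), GGGGA followed directly by TTCCC (NF-kB site) and TTTC, any 2 bases and TTTC (interferon response core).

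The H2-K1 window lies at chr17:34000298-34000597 on the minus strand, and is written 5′ to 3′ along the gene.
H2-K1: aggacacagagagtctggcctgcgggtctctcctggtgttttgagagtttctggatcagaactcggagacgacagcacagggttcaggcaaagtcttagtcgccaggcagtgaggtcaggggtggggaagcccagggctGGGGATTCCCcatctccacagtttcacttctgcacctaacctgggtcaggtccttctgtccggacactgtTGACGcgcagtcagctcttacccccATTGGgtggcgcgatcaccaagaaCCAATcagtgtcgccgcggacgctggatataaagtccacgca

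The H2-D1 window lies at chr17:35262844-35263143 on the plus strand.
H2-D1: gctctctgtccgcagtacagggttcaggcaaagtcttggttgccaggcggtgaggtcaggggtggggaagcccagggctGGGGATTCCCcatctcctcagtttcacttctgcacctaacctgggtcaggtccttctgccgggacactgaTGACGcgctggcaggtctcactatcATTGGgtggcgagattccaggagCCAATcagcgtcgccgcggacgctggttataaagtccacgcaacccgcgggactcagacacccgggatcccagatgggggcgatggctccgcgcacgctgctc

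The B2m window lies at chr2:122147437-122147736 on the plus strand.
B2m: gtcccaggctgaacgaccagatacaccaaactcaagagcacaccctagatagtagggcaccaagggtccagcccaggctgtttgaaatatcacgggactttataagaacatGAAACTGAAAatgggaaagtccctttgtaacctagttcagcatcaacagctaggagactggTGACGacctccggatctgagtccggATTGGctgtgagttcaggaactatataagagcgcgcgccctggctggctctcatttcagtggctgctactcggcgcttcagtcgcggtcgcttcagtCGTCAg

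The H2-Aa window lies at chr17:34287774-34288073 on the minus strand.
H2-Aa: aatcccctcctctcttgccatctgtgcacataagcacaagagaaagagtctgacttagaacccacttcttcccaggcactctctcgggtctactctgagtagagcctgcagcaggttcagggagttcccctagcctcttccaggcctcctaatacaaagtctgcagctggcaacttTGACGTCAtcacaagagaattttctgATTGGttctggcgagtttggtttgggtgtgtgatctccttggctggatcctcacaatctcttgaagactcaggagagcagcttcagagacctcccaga

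The H2-Eb1 window lies at chr17:34305617-34305916 on the plus strand.
H2-Eb1: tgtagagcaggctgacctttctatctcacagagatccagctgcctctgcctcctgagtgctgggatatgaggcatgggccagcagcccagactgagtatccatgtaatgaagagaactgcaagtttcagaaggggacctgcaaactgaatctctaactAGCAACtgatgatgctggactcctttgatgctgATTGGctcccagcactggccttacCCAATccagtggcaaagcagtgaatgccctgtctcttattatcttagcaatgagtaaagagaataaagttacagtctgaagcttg

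None of the 5 windows held exact letters for the X, X2 and Y boxes together. H2-K1 and H2-D1 held their motifs in the same order. In H2-D1 the NF-kB site began 171 bases before the start, TGACG 101 bases, the inverted CCAAT 76 bases and a second CCAAT 53 bases before it. In the printed H2-K1 window the same series was shifted towards the annotated start, with the NF-kB site at 111 bases, TGACG at 41 bases and the inverted CCAAT at 16 bases. Its second CCAAT began at base 9 of the transcript. From the start of the other H2-K1 window these motifs lay 125, 55, 30 and 6 bases away. The distances thus depend on which annotated start is taken. B2m held the interferon response core at 139 bases, TGACG at 78 bases and the inverted CCAAT at 53 bases. In H2-Aa the letters TGACGTCA at 74 bases hold TGACG on both strands, overlapping each other, and the inverted CCAAT followed at 48 bases. H2-Eb1 held AGCAAC at 92 bases and the inverted CCAAT at 59 bases, and no TGACG.

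Over all the genes' windows, CCAAT was found in 33 of 37, against 37.4% of the 32851 windows of the same length in the table. TGACG was found in 15 of 37, against 20.8%, and AGCAAC in 6 of 37, against 14.8%. The NF-kB letters were found in 5 of 37 windows, against 0.107% of all windows, which is 35 windows in all, and the 5 belonged to H2-K1 (both of its windows), H2-D1, H2-Q6 and H2-Q7. The interferon response core was found in B2m, H2-T22 and H2-T23, 3 of 37, against 3.44%. Many of the H2 chain genes are related by descent, so their windows are not independent, and a letter match is not evidence of binding.

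Levels are given in TPM, a share of all transcripts scaled for gene length and library size that can be compared between genes, as the authors deposited them from RSEM, a tool that shares reads among transcripts by expectation maximisation. A gene was counted as detected when it reached 1 TPM in each library. On that scale 15 of the 44 genes were detected, 34.1%, against 45.7% of all genes with a protein-coding transcript. At the other end, 11 genes had no RSEM counts in either library, where 26% of all genes with a protein-coding transcript had none. The remaining 18 lay between. All 15 detected genes held counts in both libraries, and their summed counts ran from 55 for H2-Ea-ps to 1942 for H2-D1. Detection is of all transcripts of a gene. By RSEM the coding transcripts of Tap2 were at 0.49 and 0.28 TPM and that of H2-Ea-ps at 0.81 and 0.62 TPM. The number of genes detected by coding transcripts alone was not counted.

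Class I heavy chain RNA was carried mainly by the classical pair. H2-K1, the K heavy chain, was at 26.0 TPM in replicate 1 and 20.7 TPM in replicate 2 (23.3 ± 3.78, SD, n = 2), and H2-D1, the D heavy chain, was at 18.8 and 15.9 TPM (17.3 ± 2.04, SD, n = 2). H2-K1 was above H2-D1 in both libraries, and the lowest value of H2-K1 was above the highest of H2-D1. That order is of all transcripts of each gene and turns for coding transcripts alone by RSEM, where H2-K1 was at 12.1 and 11.2 TPM and H2-D1 at 17.2 and 14.6 TPM. By kallisto the coding transcripts kept H2-K1 higher, at 27.7 and 21.7 TPM against 22.5 and 17.7 TPM. With all transcripts counted, they together held 75.3% and 78.1% of all heavy chain TPM (76.7% ± 1.97, SD, n = 2). Among the 21901 genes with a protein-coding transcript, H2-K1 ranked 2288 by mean TPM and H2-D1 ranked 2980.

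The other detected heavy chains were nonclassical. H2-T22, a ligand of gamma delta T cells, was at 4.84 and 3.47 TPM. H2-T23 encodes Qa-1, which presents leader peptides of other class I chains to natural killer cell receptors, and was at 4.02 and 3.05 TPM. By RSEM H2-T22 was above H2-T23 in each library, though their ranges overlapped. By kallisto H2-T22 was below H2-T23 in replicate 2, at 4.26 against 4.67 TPM, so no order between them can be given from 2 libraries. H2-Q4 was at 2.31 and 1.55 TPM, below both in each library. H2-M3, which presents formylated peptides, was at 0.88 and 0.41 TPM, and H2-Q7, which encodes Qa-2, was at 0.68 and 0.36 TPM by RSEM. H2-Q6 was at 0.67 and 0.41 TPM, H2-T24 at 0.53 and 0.43 TPM and H2-T10 at 0.33 and 0.22 TPM. RSEM counts for H2-Q1, H2-Q2, H2-Q10, H2-Bl and H2-M1 stayed under 12 in every library.

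Counts were 0 in both libraries for H2-M2, H2-M5, H2-M9, H2-M11, H2-T3 and the 6 genes H2-M10.1 to H2-M10.6. The M10 genes are known from the vomeronasal organ and H2-T3 encodes the thymus leukaemia antigen of intestine and thymus. A count of 0 allows up to 3 counts, which is 0.0776 CPM (counts scaled to library size) in replicate 1 and 0.0686 in replicate 2. That limit covers counting error only. H2-T3 received 1 estimated count in each library from the second tool, kallisto, so 10 of the 11 were at 0 by both tools.

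B2m, the light chain that every class I heavy chain needs for surface expression, was at 37.8 and 36.0 TPM (36.9 ± 1.27, SD, n = 2), from 833 and 898 counts. It is a gene of 1 annotated transcript at chr2:122147686-122153083, outside the complex. Its level stood above that of each heavy chain in both libraries and, with all transcripts counted, below the sum of them. The ratio of B2m TPM to summed heavy chain TPM was 0.636 in replicate 1 and 0.769 in replicate 2 (0.702 ± 0.0942, SD, n = 2). That sum includes RNA not annotated as coding, since by RSEM retained-intron transcripts held 53.0% and 45.8% of H2-K1 TPM. Coding transcripts of H2-K1 were at 12.1 and 11.2 TPM. A ratio to coding heavy chain transcripts alone was not computed, so the order of B2m and that sum is open.

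The 3 peptide-loading genes spanned a wide range. Tapbp encodes tapasin, which holds class I molecules at the peptide transporter, and was at 15.1 and 13.2 TPM (14.1 ± 1.29, SD, n = 2). Tap1 and Tap2 encode the 2 subunits of the transporter that brings peptides into the endoplasmic reticulum. Tap2 was at 2.92 and 1.81 TPM and Tap1 at 0.56 and 0.43 TPM, from 44 and 34 counts. Tapbp was thus 26.9 and 30.7 times Tap1 in the same library, and Tap2 was 5.21 and 4.21 times Tap1. The excess of Tap2 is one of all transcripts: by RSEM its coding transcripts were at 0.49 and 0.28 TPM, against 0.56 and 0.37 TPM for Tap1. By kallisto the coding transcripts of Tap2 were at 1.07 and 1.38 TPM and those of Tap1 at 0.687 and 0.437 TPM. Tapbp overlaps Zbtb22 on the same strand over 3422 bases, and Zbtb22 itself was at 7.91 and 6.23 TPM.

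Class II RNA was present at lower levels. Cd74, the invariant chain that guards the class II groove until peptide loading, was the highest at 8.19 and 5.02 TPM (6.61 ± 2.24, SD, n = 2). The A alpha chain gene H2-Aa was at 4.02 and 1.63 TPM (2.83 ± 1.69, SD, n = 2), and its partner H2-Ab1 was at 2.08 and 1.32 TPM (1.70 ± 0.537, SD, n = 2). The E beta chain gene H2-Eb1 was at 3.26 and 1.70 TPM (2.48 ± 1.10, SD, n = 2). By RSEM H2-Aa and H2-Eb1 were above H2-Ab1 in both libraries, and their own order turned between the libraries. By kallisto both were below H2-Ab1 in replicate 2, at 2.29 and 1.98 TPM against 3.00 TPM. The order of H2-Aa, H2-Eb1 and H2-Ab1 is thus not settled by these libraries. Cd74 lay above each of them in both libraries. With all transcripts counted, it equalled 0.783 and 0.876 of the summed TPM of H2-Aa, H2-Ab1, H2-Eb1 and H2-Ea-ps. By RSEM, coding transcripts held all of Cd74 TPM but 34.7% and 19.4% of H2-Eb1 TPM. The share against coding transcripts alone was not computed.

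H2-Ea-ps is the E alpha chain gene, which the annotation calls a polymorphic pseudogene: the C57BL/6J haplotype carries a deletion over its promoter and first exon, while other haplotypes make an E alpha chain. It was at 1.10 and 1.08 TPM, from 27 and 28 counts. Relative to H2-Eb1, whose beta chain would pair with it, the TPM ratio was 0.337 in replicate 1 and 0.635 in replicate 2. That ratio is of all transcripts. By RSEM, coding transcripts held 73.6% and 57.4% of H2-Ea-ps TPM but 34.7% and 19.4% of H2-Eb1 TPM. Which parental copy the reads came from was not tested, since the deposited values hold no allele.

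H2-DM catalyses peptide exchange on class II molecules. Its alpha chain gene H2-DMa was at 1.99 and 1.16 TPM, and the beta chain genes H2-DMb1 and H2-DMb2 were lower, at 0.21 and 0.07 TPM and at 0.21 and 0.23 TPM. H2-DMa overlaps Brd2 on the opposite strand over 3094 bases, and Brd2 was at 44.3 and 31.4 TPM. H2-DO holds H2-DM back, and its genes were near 0, with 1 and 0 counts for H2-Oa and 2 and 3 counts for H2-Ob. H2-Eb2 had 0 and 1 counts.

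Neither transactivator was detected. Nlrc5 was at 0.33 and 0.43 TPM, from 23 counts in each library, and Ciita was at 0.13 and 0.08 TPM, from 13 and 11 counts. Ciita overlaps Dexi on the opposite strand, which had 708 and 816 counts. H2-Ke6, also called Hsd17b8, had the highest mean of the 44 genes at 40.5 and 36.0 TPM (38.2 ± 3.21, SD, n = 2), a range that overlaps that of B2m. It held 22.8% and 24.5% of the summed TPM of the 44 genes, which is why shares of that sum are not shares of antigen presentation RNA alone. Class I heavy chains held 33.4% and 31.9% of the sum (32.6% ± 1.12, SD, n = 2) and class II genes 11.9% and 8.35% (10.1% ± 2.50, SD, n = 2).

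**Figure D1:**
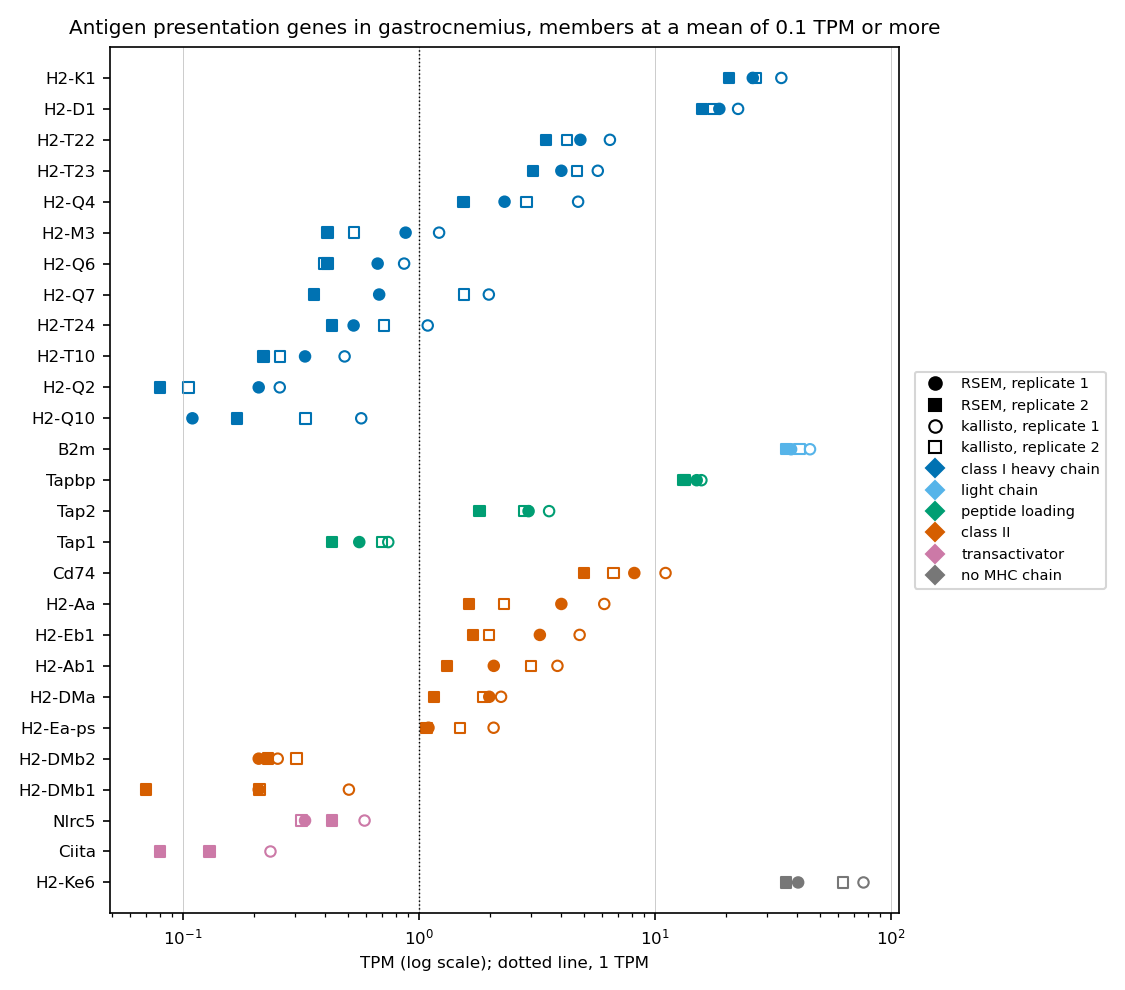
TPM on a log axis for the 27 genes with a mean RSEM level of at least 0.1 TPM, grouped by role in colour; circles are replicate 1, squares replicate 2, filled symbols RSEM and open symbols kallisto. H2-Ke6, B2m, H2-K1, H2-D1 and Tapbp sit above 10 TPM in both libraries by both tools, and both transactivators sit below the dotted line at 1 TPM.

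On chromosome 17, 40 of the 44 genes lie in 1 stretch of the mm10 build, and their levels are given by segment. The first 3 genes, Tapbp, H2-K1 and H2-Ke6 at chr17:33915899-34028060, were all detected and summed to 81.6 and 69.8 TPM. The 12 genes from H2-Oa to H2-Ea-ps at chr17:34092340-34344645, the class II segment with Tap1 and Tap2 inside it, summed to 16.5 and 9.50 TPM with 6 detected. The 7 genes from H2-D1 to H2-Q10 at chr17:35262730-35474563 summed to 22.8 and 18.6 TPM with 2 detected, and H2-D1 itself made up most of it. The 6 genes from H2-T24 to H2-T3 at chr17:36005695-36190287 summed to 9.80 and 7.17 TPM with 2 detected. None of the 12 genes of the M segment at chr17:36284227-37483552 was detected, and 10 of them had no counts.

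**Figure D2:**
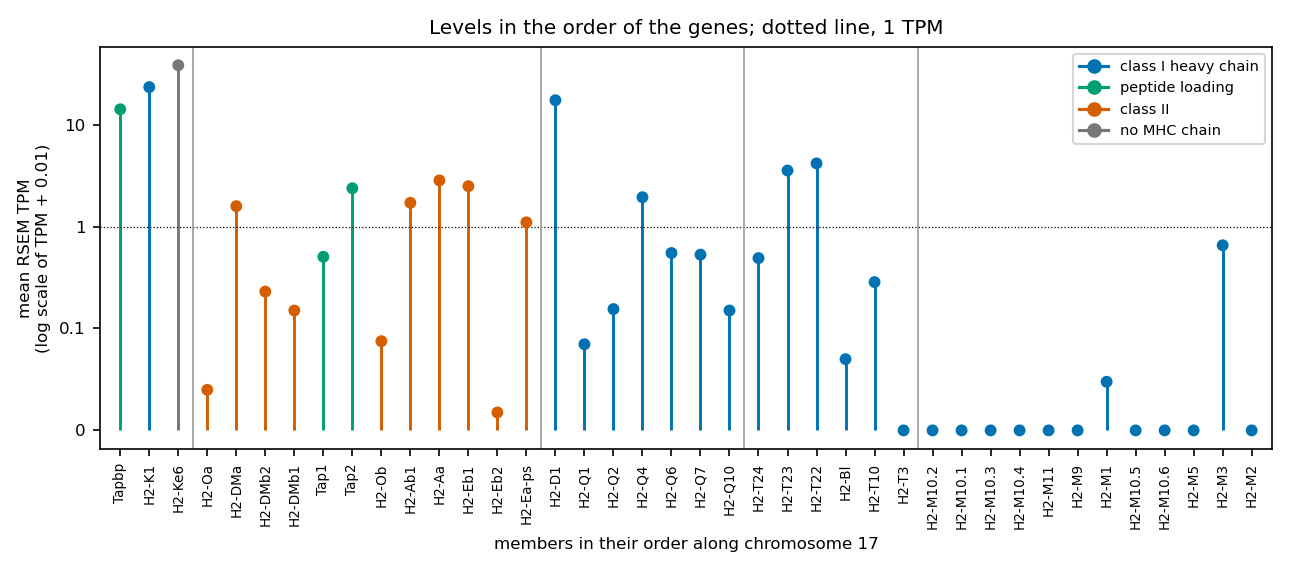
Mean RSEM TPM of the 40 genes of chromosome 17 in their order along it, spaced evenly and not to distance, on a log scale of TPM + 0.01; grey lines separate the 5 segments and the dotted line marks 1 TPM. The 12 genes of the last segment all lie below that line, and H2-M3 is the highest of them.

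Some class I genes share long stretches of sequence, which bears on how reads were divided among them. Of all 50-base windows in the annotated transcripts of each gene, 34.5% of H2-T22 also occur in transcripts of another gene, most of them in H2-T10, of which 32.9% are shared. The shares were 32.0% for H2-Q6, 26.4% for H2-Q7, 21.8% for H2-Q4 and 19.0% for H2-Q10. H2-M10.5 shared 16.2%, H2-Q2 16.1%, H2-Q1 15.0%, H2-T23 13.6%, H2-M10.3 13.0% and H2-M10.2 12.4%. The shares were 12.8% for H2-D1 and 9.63% for H2-K1, and near 0 for others, such as H2-T24 at 3.17%, H2-T3 at 0.89%, H2-M3 at 0.58% and H2-M11 with none. Class II genes shared almost nothing, with 0.49% for H2-Aa and none for Cd74, H2-Ab1, H2-Eb1, H2-Ea-ps or H2-DMa, apart from the H2-DMb1 and H2-DMb2 pair at 22.7% and 24.8%. B2m shared no window, and H2-Ke6 shared 70.5%, all with the read-through transcript Gm20427. Values for the Q genes, for H2-T10, H2-T22 and H2-T23, for H2-DMb1 and H2-DMb2 and for H2-Ke6 are therefore uncertain beyond their counts. The same holds for the 0 counts of H2-M10.2, H2-M10.3 and H2-M10.5. Moreover, all transcripts are of the C57BL/6J sequence, and how reads of the CAST alleles were placed was not tested.

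**Figure D3:**
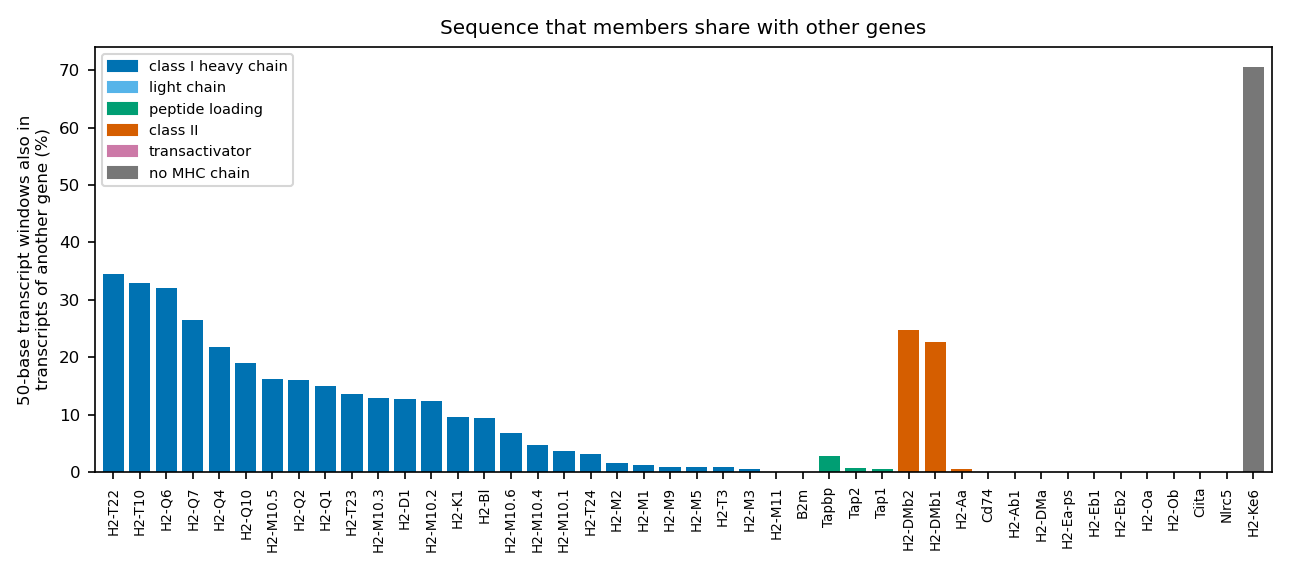
Percent of 50-base windows of each gene's annotated transcripts that also occur in transcripts of another gene, for all 44 genes, with bars coloured by role. The tallest class I bars are H2-T22 at 34.5% and H2-T10 at 32.9%, the class II bars are near 0 apart from the H2-DMb genes, and H2-Ke6 reaches 70.5%.

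Kallisto, which assigns reads to transcripts without alignment to a genome, gave a second set of values. Over the 10002 protein-coding genes detected by RSEM, its TPM was a median of 1.38 times the RSEM TPM in replicate 1 and 1.29 times in replicate 2, and the 5th and 95th percentiles were 1.04 and 2.08 in replicate 1 and 0.976 and 1.98 in replicate 2. It detected 16 of the 44 genes, against 48.1% of all genes with a protein-coding transcript, and the added gene was H2-Q7. H2-Q7 stood at 1.98 and 1.55 TPM by kallisto, 2.91 and 4.32 times its RSEM level, from 87.6 and 66.1 estimated counts against 35.5 and 18.1. H2-Q4 received 183 and 139 estimated counts by kallisto against 120 and 93.1 by RSEM, and H2-Q10 received 40.0 and 24.1 against 6.96 and 11.8. For H2-K1 and H2-D1 the counts of the tools lay within a factor of 1.08 and 1.03 and of 0.999 and 0.995.

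For B2m kallisto gave more TPM but fewer counts than RSEM, and both ratios were low among all detected protein-coding genes. Kallisto gave it 45.5 and 41.0 TPM, 1.20 and 1.14 times the RSEM level and between the percentiles given above. Over all those genes the lower quartiles were 1.27 in replicate 1 and 1.19 in replicate 2, so B2m lay below them. In counts, kallisto gave it 595 and 658 estimated counts against 833 and 898 by RSEM, or 0.714 and 0.733 times as many, below the 5th percentile of all detected protein-coding genes, which was 0.863 in replicate 1 and 0.871 in replicate 2. With kallisto values the ratio of B2m to summed heavy chains was 0.564 and 0.680. Class II counts moved less for Cd74, H2-Aa, H2-Eb1 and H2-Ea-ps, and H2-Ab1 had 72 and 52 estimated counts against 66 and 39.

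Several of the genes were carried largely by transcripts that the annotation does not call coding. For Tap2, the retained-intron transcript Tap2-202 held 83.2% and 84.4% of the gene's TPM by RSEM and 70.0% and 50.6% by kallisto. For H2-K1, retained-intron transcripts held 53.0% and 45.8% by RSEM but 19.5% and 19.2% by kallisto, so the coding level of H2-K1 differs between the tools more than its total does. For H2-Eb1, the transcript H2-Eb1-205, annotated as a target of nonsense-mediated decay, held 54.6% and 40.6% by RSEM and 75.4% and 51.3% by kallisto. H2-D1 was carried by the coding transcript H2-D1-202 at 88.3% and 87.6% by RSEM, and Cd74 by Cd74-201 at 68.1% and 64.1%, with the coding Cd74-202 making up the rest. In Tapbp the tools named different coding transcripts, Tapbp-206 at 60.2% and 66.8% by RSEM and Tapbp-201 at 68.1% and 76.3% by kallisto. The coding transcript of H2-Ea-ps held 73.6% and 57.4% of its TPM by RSEM.

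The libraries were then compared gene by gene, as counts scaled by the TMM method of edgeR, with replicate 2 over replicate 1. This compares 1 library with 1 other and describes those libraries only. A summed count of at least 50 was required, which 20 of the 44 genes and 12969 genes in all had. Of the 20, 3 were at least 2-fold lower in replicate 2, against 1.94% of all genes compared, and none was at least 2-fold higher, against 2.7%. Among genes with a summed count of 50 to 500, the range that holds the 3, 4.02% were lower by that much and 3.96% higher. H2-K1, H2-D1, B2m, H2-Ke6 and Tapbp are among the 20 but lie above that range, so these shares cover unlike ranges of counts. Of the 20 genes, 17 had a log2 ratio below 0, against 50.2% of all genes, and their median was -0.39, against -0.0009 for all genes.

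The lowest log2 ratios were those of a pair of class II genes. H2-Aa had 117 counts in replicate 1 and 54 in replicate 2, which was 2.21-fold more in replicate 1 after scaling (95% exact binomial counting interval 1.59 to 3.11) and a log2 ratio of -1.12. H2-Eb1 had 109 and 53 counts, 2.10-fold more in replicate 1 (1.50 to 2.97) and a log2 ratio of -1.04. H2-Ab1 had 66 and 39 counts, 1.73-fold more (1.15 to 2.64). For all 3 the counting interval of the RSEM counts excludes equal levels in these libraries. With kallisto counts H2-Ab1 was at a log2 ratio of -0.48, and no interval was computed from those counts. The libraries carry no molecular identifiers that would tell separate molecules from copies, so the intervals cover counting error only. Intervals of Cd74, H2-T22, H2-M3, H2-Q6, H2-Q7 and Tap2 also exclude equality, as does that of Tapbp in the other direction. So do those of the muscle fibre genes Acta1, higher in replicate 2, and Myh4, lower in it. The share over all genes was not counted, so such an interval is no trait of class II genes. All intervals here are of RSEM counts. They do not cover how reads were divided between H2-Q6, H2-Q7 and the genes that share their sequence. With kallisto counts H2-Q7 was at a log2 ratio of -0.43.

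Cd74 differed less, with 281 and 196 counts, 1.46-fold more in replicate 1 (1.22 to 1.77). H2-DMa had 51 and 36 counts, 1.45-fold more with an interval of 0.926 to 2.28 that includes equality. H2-Ea-ps stood apart with 27 and 28 counts and a ratio of 0.984 (0.558 to 1.73), an interval wide enough to overlap that of H2-Aa. Summed over the 11 class II genes, counts were 668 in replicate 1 and 423 in replicate 2, and replicate 2 had 0.620 of the replicate 1 level (0.548 to 0.702). The median log2 ratio of the 6 class II genes compared was -0.65. With kallisto counts H2-Aa alone of the 44 genes was at least 2-fold lower, at -1.08, against 1.99% of all genes compared, and H2-Eb1 was at -0.92. Spike-in totals, which move the median of all genes to -0.22, put 5 of the 20 at least 2-fold lower, against 3.39% of all genes. Those 5 were H2-Aa, H2-Eb1, H2-Q6, H2-Q7 and H2-M3.

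Class I heavy chains differed less between the libraries. All 9 compared had a log2 ratio below 0, with a median of -0.38. H2-K1 had 658 and 620 counts and a log2 ratio of -0.12, and H2-D1 had 995 and 947 counts and a log2 ratio of -0.10, and both counting intervals include equality. H2-Q6, with 33.8 and 16.4 counts, was 2.10-fold more in replicate 1 (1.17 to 4.21), and H2-Q7, with 35.5 and 18.1 counts, was 2.00-fold more (1.13 to 3.82), a log2 ratio of -0.95 once a prior count is added and -0.43 with kallisto counts. H2-M3 had 34 and 18 counts and a log2 ratio of -0.88. Summed over the 26 heavy chain genes, counts were 2333 and 2090, and replicate 2 had 0.878 of the replicate 1 level (0.827 to 0.931).

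The genes with a ratio above 0 were Tapbp at 0.15, B2m at 0.08 and H2-Ea-ps at 0.02, and all 3 turn negative when the libraries are scaled to the spike-ins (-0.07, -0.14 and -0.19) or taken as a ratio of TPM (-0.19, -0.07 and -0.03). With kallisto counts H2-Ea-ps was at -0.18. The TPM ratio moves the median of all genes to -0.15, and relative to the medians of these scalings the 3 genes stay above all genes, except Tapbp as a ratio of TPM. Tap2 had 202 and 154 counts and Tap1 44 and 34, with log2 ratios of -0.42 and -0.38. H2-Ke6 was at -0.06.

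**Figure D4:**
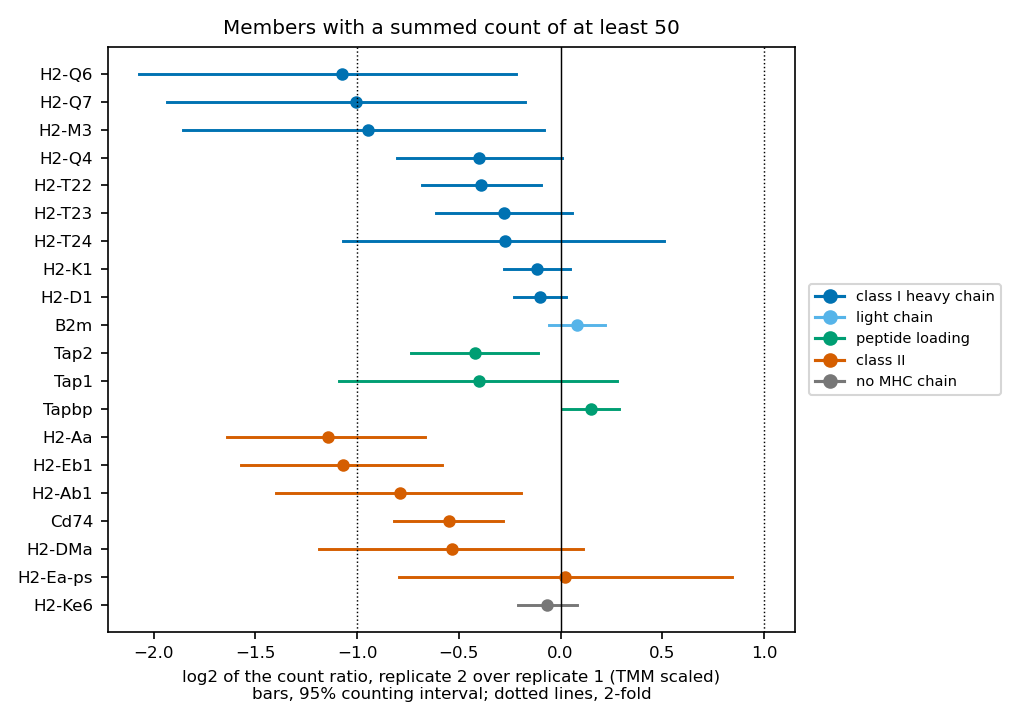
Ratio of scaled RSEM counts, replicate 2 over replicate 1, on a log2 axis for the 20 genes compared, without a prior count. Bars are 95% exact binomial counting intervals, colours are roles, and dotted lines mark 2-fold. H2-Aa, H2-Eb1, H2-Q6 and H2-Q7 lie left of the 2-fold line with intervals clear of 0, while the intervals of H2-K1, H2-D1, B2m and H2-Ea-ps include 0.

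Markers of the cells that could hold these transcripts were read beside the ratios. In bulk muscle, fewer cells of a type and less RNA per cell cannot be told apart. For the labelled tissue, 6 of 6 muscle fibre genes were detected at a summed level of 88151 and 82046 TPM. Pan-leukocyte markers summed to 5.15 and 3.75 TPM with 2 of 4 detected, and the 3 compared all had ratios below 0. Ptprc, the gene of CD45, had 75 and 34 counts and a log2 ratio of -1.13, while Coro1a was at -0.31 and Laptm5 at -0.21. Tyrobp had 23 counts in each library.

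Macrophage markers did not move one way. They summed to 38.3 and 34.5 TPM with 7 of 10 detected, and of the 9 compared 3 were below 0 and 6 above, with a median of 0.22. Cd68 was at -1.24 and Cd163, a resident macrophage receptor, at 0.89. Dendritic cell markers summed to 3.62 and 1.96 TPM with 1 of 8 detected. That gene was Zbtb46, which endothelial cells also express, at a log2 ratio of -0.63. Cd209a, a marker of monocyte-derived dendritic cells, had 33 and 8 counts and Ccr7 none. The other dendritic cell markers had few counts and did not move one way. Flt3 had 7 and 3 counts and Clec9a 3 and 1, while Itgax had 5 and 5, Batf3 1 and 2 and Xcr1 0 and 2. B cell markers had 22 and 5 counts in all 5 genes together, 0.38 and 0.09 TPM. T and natural killer cell markers summed to 0.49 and 0.28 TPM, and Cd3e, Cd3g, Cd8a and Nkg7 had no RSEM counts. Endothelial markers, all 8 detected, summed to 79.0 and 59.9 TPM with 6 of 8 ratios below 0 and a median of -0.44. Fibro-adipogenic markers went the other way, at 178 and 215 TPM, with 4 of 6 at least 2-fold higher in replicate 2 and a median of 1.19. The part of any of these cells in the class II ratios was not tested.

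**Figure D5:**
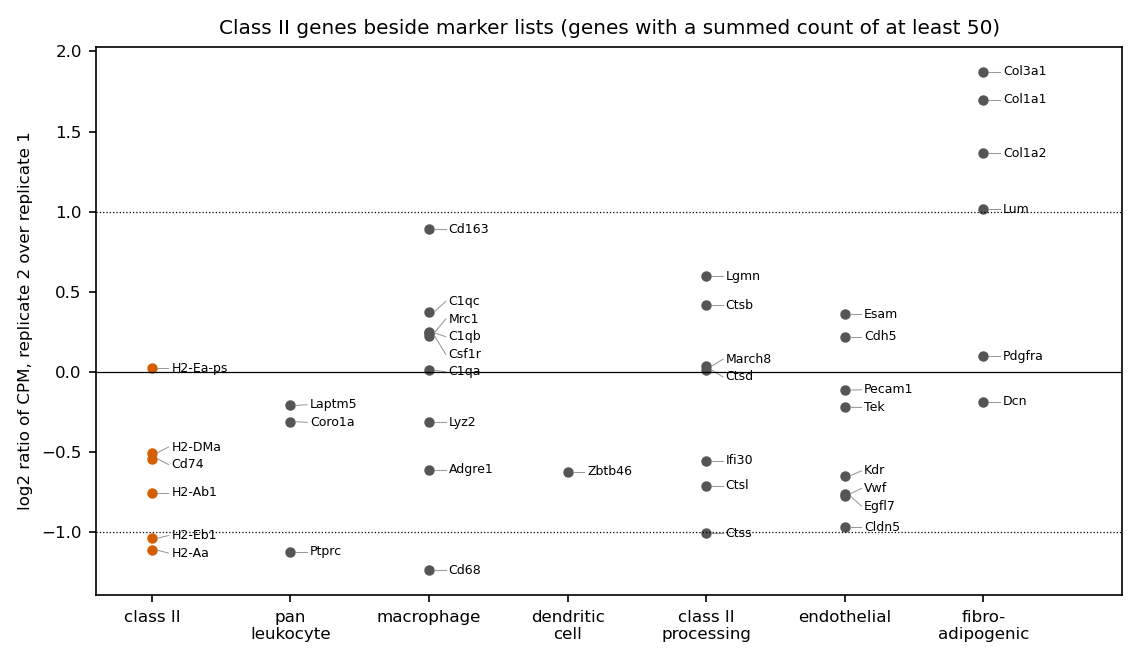
Log2 ratio of CPM, replicate 2 over replicate 1, for each compared class II gene (orange) and for the compared genes of the class II processing list and 5 marker lists (grey); dotted lines mark 2-fold. Ptprc at -1.13, Cd68 at -1.24 and Ctss at -1.01 lie near H2-Aa and H2-Eb1, and each is the lowest of its list. Of the genes compared, 6 of 9 macrophage and 4 of 7 class II processing genes lie above 0. Cd163 lies at 0.89 and 4 fibro-adipogenic genes lie above 1.

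The rest of the pathway was read from lists of genes. In class I processing, which covers immunoproteasome subunits, trimming peptidases and chaperones, 12 of 14 were detected and none of the 13 compared passed 2-fold, with a median of -0.09. Its highest were the chaperones Calr at a mean of 68.9 TPM and Canx at 44.7 TPM and the aminopeptidase Lnpep at 30.4 TPM. In class II processing 6 of the 9 genes found were detected and 1 of 7 compared passed 2-fold, the invariant chain protease Ctss with 79 and 39 counts and a log2 ratio of -1.01. The other lysosomal proteases of that list are not restricted to antigen presenting cells and stood much higher, with Ctsd at a mean of 205 TPM, Ctsb at 88.6 TPM and Ctsl at 79.2 TPM, and the median of the list was 0.01.

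All 10 shared transcription factors were detected, none passed 2-fold, and their median was -0.14. The highest were Irf2 at a mean of 18.6 TPM and the NF-Y subunits Nfyc at 17.1 and Nfyb at 15.7 TPM, all far above Nlrc5 and Ciita. Of the interferon gamma signalling genes 8 of 11 were detected, none of the 9 compared passed 2-fold, and their median was 0.04. Jak1 at a mean of 45.8 TPM, the receptor subunit Ifngr2 at 25.5 TPM and Jak2 at 10.6 TPM led that list.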

How the data were processed

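Muscle RNA of female B6CASTF1/J mice was sequenced as 1 group of 2 libraries, biological replicates per the labels. The build (mm10) and annotation (GENCODE M21) come from the submitters' processing notes. The sources used here do not give the aligner, tool versions, read length or use of strand in counting. The authors deposited expected counts and TPM under RSEM's column names, and estimated counts and TPM per transcript under kallisto's, per the file headers. Kallisto values were summed per gene. The deposited posterior mean TPM served as an alternative. Deposited FPKM and percent columns were left unused.

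Gene totals were 38654555 counts for replicate 1 and 43722892 for replicate 2. For ratios, expected counts were rounded and scaled by TMM (edgeR 4.0.16, R 4.3.3) where a gene's summed count reached 50, with a prior count of 2 on the log2 CPM scale. Alternatives were DESeq2 1.42.0 size factors, spike-in totals, kallisto, TPM ratios, other prior counts and other minimum counts. Intervals are exact conditional binomial intervals at 95%. The ratio code was checked on simulated data. Python 3.11.15 counted transcript windows in GENCODE M21 and motifs in RefSeq windows.

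Genes were named at 1 TPM or more in both libraries by either tool, and all class II, light chain, loading and transactivator genes in any case. Other class I genes with counts were named after their values were seen. The members and lists were chosen with earlier results of these data known.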

Additional observations from a re-analysis of the deposited data

How the results depend on the processing

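No paired analysis was possible because there was 1 group. Leaving out either library left the detected count at 15 to 15, the class II share between 8.35% and 11.9%, the class I share between 31.9% and 33.4% and the B2m ratio between 0.636 and 0.769. The between-library ratios have no such alternative, since they need both. A threshold of 2 TPM left 8 genes detected, and kallisto gave a class I share of 31.0%. Genes at least 2-fold lower numbered 5 by spike-in totals, 1 by kallisto and 0 at a summed count of at least 500, where no class II gene remains. With no filter 1 gene was at least 2-fold higher, H2-Q1 with 0 and 7.41 counts. The class II median was -0.87 by spike-ins and -0.47 by kallisto. The class I median was -0.60 by spike-ins, -0.48 as a TPM ratio and -0.12 at a summed count of 500. The median of all compared was -0.61, -0.53 and -0.073 under the same settings. DESeq2 size factors and a prior count of 0.5 moved none of these past the bounds used. Of the 24 named genes' levels, kallisto moved 18 by more than the spread of the libraries, all 24 upwards, and the posterior mean moved 10. Counts under about 50 limit most Q and T genes, the H2-DMb and H2-DO genes and both transactivators. With coding transcripts only, an alternative chosen after seeing the data, the RSEM mean ratio turned from 1.34 to 0.736 for H2-K1 over H2-D1 and from 4.71 to 0.816 for Tap2 over Tap1.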

Other observations

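Another 8 H2 genes in the table have no protein-coding transcript and were left out by the rule, and none reached 1 TPM in both libraries. H2-T-ps, a pseudogene of the T segment, came closest at 1.23 and 0.86 TPM from 34.5 and 27.2 counts. H2-K2 was at 0.52 and 0.51 TPM, H2-M6-ps at 0.18 and 0.07 TPM and H2-Q5, annotated as a polymorphic pseudogene, at 0.17 and 0.03 TPM. H2-Q3, H2-Pa, H2-Pb and H2-M10.5-ps1 had no counts by either tool.

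Transcripts antisense to the T segment were present at low level. A930015D03Rik, which overlaps H2-T22, H2-T23 and H2-T24 on the opposite strand, had 26 and 15 counts, 0.89 and 0.45 TPM. Gm11131, opposite to H2-Q4, had 9 and 4 counts by RSEM and 36.6 and 18.0 estimated counts by kallisto. Patl2, opposite to the whole of B2m, had none by either tool. The read-through Gm20427, which shares H2-Ke6 sequence, had 15.0 and 0 counts by RSEM and 103 and 80.7 estimated counts by kallisto.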
